A study of Rattus norvegicus with 8 samples.

Results

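The genes described here are 9 that mark the neutrophil, the first white blood cell to enter an inflamed lung: Camp, S100a8, S100a9, Lcn2, Mpo, Csf3r, Fpr1, Ncf1 and Cybb. They were taken by exact gene symbol, whatever their level, and followed over all 8 arrays of the series. Of the 9 genes 7 had a probe set in the table used here, and these had 8 probe sets of 20242 in all, because Cybb has a second one. Mpo, which encodes myeloperoxidase, and Fpr1, which encodes a receptor for formylated bacterial peptides, had none and were not analysed here. A probe set is the group of short array oligonucleotides that together read 1 transcript, and its value is given as a log2 level.

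Whole RNA of the dorsal-caudal lung of male Sprague-Dawley rats of 340 to 400 g was measured on Affymetrix arrays. The control group held 2 non-ventilated rats. The prone group held 3 rats and the supine group 3 rats. Both were mechanically ventilated for 3 hours at most, with large breaths (a tidal volume of 18 mL per kg), a rate of 40 per minute and an end-expiratory pressure of 0 cmH2O. The protocol describes anaesthesia, a tracheotomy and a jugular cannula. The sources used here do not say whether the non-ventilated rats had these too, or how long each rat was ventilated. The strain and sex were the same in every group, and the labels name no allele, and no drug beyond the anaesthesia. The number of arrays limits the precision of every value below.

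Neutrophils make their granule proteins while they mature in the bone marrow and carry them, preformed, into tissue. S100A8 and S100A9 pair to form calprotectin, which fills the neutrophil cytosol, binds metal ions and acts as an alarm signal when released. Camp encodes the precursor of the antimicrobial peptide cathelicidin, and Lcn2 encodes lipocalin 2, which withholds iron from bacteria by binding their siderophores. Csf3r encodes the receptor for granulocyte colony-stimulating factor, through which neutrophils are formed and kept alive. Cybb encodes the membrane subunit of the phagocyte NADPH oxidase and Ncf1 its organising cytosolic subunit, and the enzyme makes superoxide. These genes are not all confined to neutrophils: macrophages carry Cybb, monocytes carry S100a8 and S100a9, and injured epithelium makes Lcn2. In whole lung RNA, a change in the number of cells of a type and a change in RNA per cell cannot be told apart.

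The series asks what injurious ventilation changes in this lung region and whether body position alters it. S100a8, S100a9 and Csf3r were higher than in both controls on all 6 ventilated arrays, by 3.86-fold to 13.3-fold on average over both ventilated groups. Lcn2 was above both controls on 3 of 3 supine arrays and on 1 of 3 prone arrays. Camp was high on 1 prone and 1 supine array alone. Both Cybb probe sets had lower means in ventilated lungs, and Ncf1 stayed near the bottom of the scale on every array. None of these differences passed the test across all probe sets, limma with Benjamini-Hochberg adjustment at an adjusted p under 0.05.

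For prone against control 0 of 6 tested genes passed, where 0.0533% of the 16896 tested probe sets did (9 probe sets). For supine against control 0 of 6 passed, against 0.0533% of all (9 probe sets). For supine against prone 0 of 6 passed, against 0% of all. For both ventilated groups against control 0 of 6 passed, against 0.142% of all (24 probe sets). At an unadjusted limma p under 0.05 the count was 3 of 6 genes for prone against control, where 17.7% of all tested probe sets lay, and 3 of 6 for supine against control, where 15.2% lay. It was 3 of 6 for ventilated against control, against 19.2%, and 0 of 6 for supine against prone, against 4.09%. The 3 genes were S100a8, S100a9 and Csf3r each time, and all 3 were higher. Without control replicate 2 the count was 1 for prone and 1 for supine against control, and without prone replicate 1 it was 1, Lcn2, for supine against prone. The seventh gene, Ncf1, was below the filter on low values and was not tested. The median difference over the 7 genes was 1.26 on the log2 scale for prone, 1.66 for supine and 1.17 for both against control. That median, with Ncf1 counted, was the Camp difference for prone and the Lcn2 difference for supine and for both. Leaving out 1 array at a time it ran from 0.04 (without prone replicate 1) to 2.06 for prone, from 1.05 (without supine replicate 1) to 1.95 for supine and from 0.55 (without prone replicate 1) to 1.55 for both. Over all 11217 named genes it was -0.12, -0.05 and -0.09.

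**Figure D1:**
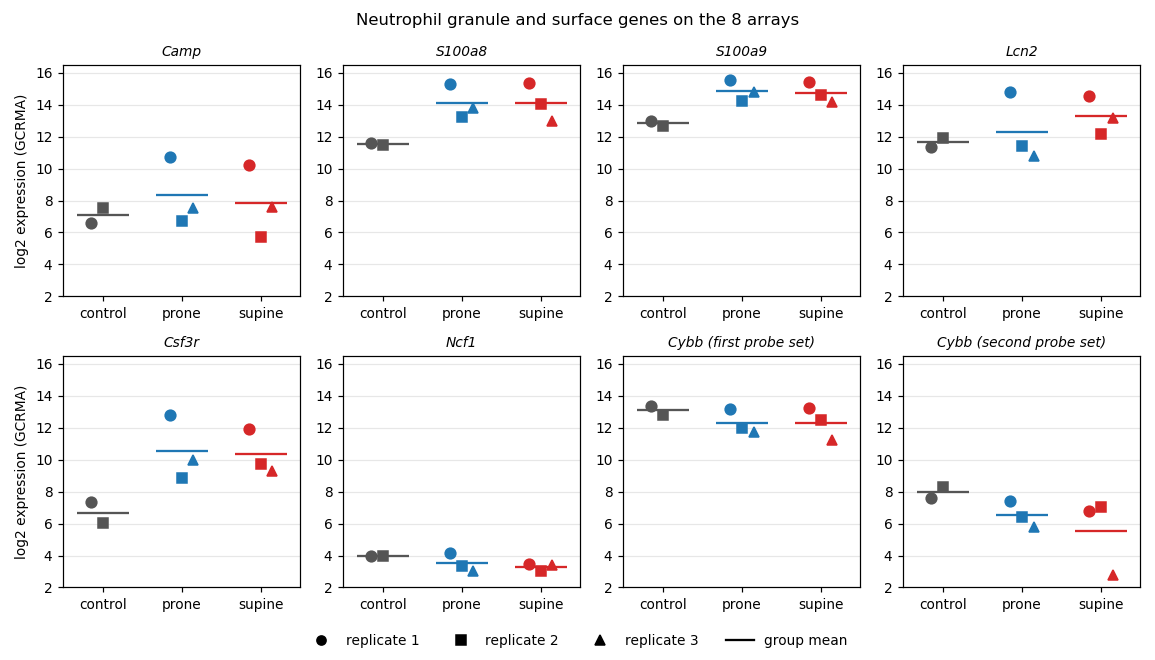
Each panel plots 1 probe set, with the log2 level (GCRMA) on the vertical axis and the control, prone and supine groups on the horizontal axis. Each point is 1 array, its shape gives the replicate number, and each bar is a group mean. S100a8, S100a9 and Csf3r have every ventilated array above both controls, and Camp stands at 10.76 and 10.24 on the first prone and first supine arrays and at most at 7.58 elsewhere.

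S100a8 (probe set 1368494_at) encodes the smaller subunit of calprotectin. Its log2 level was 11.63 and 11.50 on the control arrays, 15.31, 13.23 and 13.78 on the prone arrays and 15.36, 14.03 and 12.997 on the supine arrays. The groups did not overlap, and the lowest ventilated array stood clearly above both controls. The mean was 2.55 ± 0.79 (limma SE) higher in prone lungs, a 5.84-fold difference (unadjusted p = 0.0136, adjusted p = 0.177). In supine lungs it was 2.57 ± 0.79 higher, 5.92-fold (unadjusted p = 0.0131, adjusted p = 0.252). Every array being higher than both controls was seen for 3 of the 7 genes in prone lungs, where it was seen for 20.9% of all tested probe sets, and for 4 of 7 in supine lungs, where it was seen for 20%. Over all 6 ventilated arrays it was seen for 3 of 7 genes and for 12.9% of all.

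S100a9 (probe set 1387125_at) encodes the larger subunit, the partner of S100A8. Its log2 level was 13.01 and 12.68 on the control arrays, 15.55, 14.26 and 14.77 on the prone arrays and 15.43, 14.60 and 14.17 on the supine arrays. Here too every ventilated array exceeded both controls, and the first array of each ventilated group was the highest of its group. The difference was 2.01 ± 0.50 for prone lungs, 4.03-fold (unadjusted p = 0.00436, adjusted p = 0.127 by limma). For supine lungs it was 1.88 ± 0.50, 3.69-fold (unadjusted p = 0.00618, adjusted p = 0.220). Over both ventilated groups the difference was 1.95 ± 0.45 for S100a9 and 2.56 ± 0.71 for S100a8, with adjusted p = 0.111 and 0.141. S100a9 follows S100a8 directly on rat chromosome 2, and S100a9 was also the gene with the profile most like that of S100a8. The brightest value of any probe set on these arrays was 15.72, so the upper S100a9 values lay close to the top of the scale.

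The S100a9 promoter of the RefSeq table (GRCr8, chr2:178490573-178490872, minus strand) is printed because S100a9 had the smallest p of the 7 genes. It runs from 250 bases before to 50 bases after the transcript start, 5′ to 3′ on the gene's strand. Capitals mark the letters TTNNGNAA, a core bound by C/EBP factors, and GAGGAA, a core bound by PU.1, each searched on both strands. Capitals also mark TGANTCA (AP-1, with any middle base allowed) on both strands and TATAAA (the TATA box) on the forward strand.
S100a9: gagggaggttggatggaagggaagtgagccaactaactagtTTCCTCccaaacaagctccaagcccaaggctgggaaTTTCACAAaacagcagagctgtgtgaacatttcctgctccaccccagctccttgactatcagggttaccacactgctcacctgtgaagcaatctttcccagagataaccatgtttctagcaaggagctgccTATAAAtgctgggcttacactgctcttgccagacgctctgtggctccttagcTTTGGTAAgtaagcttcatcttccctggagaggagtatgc
In this window the C/EBP letters stand at -173 to -166, on the other strand, and at 10 to 17 from the transcript start, counted as 0. The PU.1 letters, also on the other strand, stand at -209 to -204, and TATAAA at -42 to -37. S100a9 was the only one of the 8 genes with a promoter in the table whose window held TATAAA, which 8.80% of 33469 rat promoters of this length hold. S100a8 had no promoter there.

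Lcn2 (probe set 1387011_at) stood at log2 11.38 and 11.90 on the control arrays, 14.78, 11.39 and 10.78 on the prone arrays and 14.53, 12.20 and 13.18 on the supine arrays. All supine arrays were above both controls, while the prone arrays lay on both sides of them. The supine mean was 1.66 ± 1.19 higher than control (adjusted p = 0.509 by limma) and the prone mean 0.67 ± 1.19 higher (adjusted p = 0.804). In the prone group a single array stood far above the other two.

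Camp (probe set 1393603_at) had log2 levels of 6.62 and 7.54 in controls, 10.76, 6.72 and 7.52 in prone lungs and 10.24, 5.72 and 7.58 in supine lungs. The first array of each ventilated group was high and the remaining ones lay around the controls, so the groups overlapped. The prone mean differed from control by 1.26 ± 1.505 (adjusted p = 0.698 by limma) and the supine mean by 0.77 ± 1.505 (adjusted p = 0.819). For both ventilated groups together the difference was 1.01 ± 1.35 for Camp and 1.17 ± 1.06 for Lcn2.

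The promoters of Lcn2 (GRCr8, chr3:36081731-36082030, minus strand) and Camp (GRCr8, chr8:118721949-118722248, minus strand) are shown as a pair because both genes peaked on the same arrays while their windows hold different letters. Capitals mark the same motifs as above.
Lcn2: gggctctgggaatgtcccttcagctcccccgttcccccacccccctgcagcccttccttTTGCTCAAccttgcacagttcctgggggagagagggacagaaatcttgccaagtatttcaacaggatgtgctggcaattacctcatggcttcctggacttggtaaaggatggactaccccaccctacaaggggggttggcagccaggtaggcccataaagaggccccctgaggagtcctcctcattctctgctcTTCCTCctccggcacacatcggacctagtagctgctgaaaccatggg
Camp: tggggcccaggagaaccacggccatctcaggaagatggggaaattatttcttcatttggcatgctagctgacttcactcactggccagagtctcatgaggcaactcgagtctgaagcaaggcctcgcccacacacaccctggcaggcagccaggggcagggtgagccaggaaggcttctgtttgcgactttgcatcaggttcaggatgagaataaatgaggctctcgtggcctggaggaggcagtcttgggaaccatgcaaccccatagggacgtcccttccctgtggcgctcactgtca
The Lcn2 window holds the C/EBP letters at -191 to -184 and the PU.1 letters at 3 to 8, both on the other strand. The Camp window holds none of the motifs searched.

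Csf3r (probe set 1386009_at), the receptor gene, had the widest range of the 7 genes. Its log2 level was 7.38 and 6.01 on the control arrays, 12.79, 8.84 and 9.96 on the prone arrays and 11.96, 9.76 and 9.29 on the supine arrays. Every ventilated array exceeded both controls, and the first array of each ventilated group again led. The difference was 3.84 ± 1.24 in prone lungs, 14.3-fold (unadjusted p = 0.0158, adjusted p = 0.187 by limma). In supine lungs it was 3.64 ± 1.24, 12.5-fold (unadjusted p = 0.0200, adjusted p = 0.274). Over both ventilated groups it was 3.74 ± 1.11 (adjusted p = 0.152).

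The Csf3r promoter (GRCr8, chr5:143582970-143583269, plus strand) is printed as that of the gene with the largest difference, with the same capitals.
Csf3r: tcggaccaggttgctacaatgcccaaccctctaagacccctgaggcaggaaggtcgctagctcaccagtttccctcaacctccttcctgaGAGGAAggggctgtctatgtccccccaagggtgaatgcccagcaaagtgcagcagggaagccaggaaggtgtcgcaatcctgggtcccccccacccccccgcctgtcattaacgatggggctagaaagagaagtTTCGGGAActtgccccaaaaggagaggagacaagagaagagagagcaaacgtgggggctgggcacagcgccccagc
It holds GAGGAA at -160 to -155 and the C/EBP letters at -26 to -19, both on the gene's own strand. The C/EBP letters occurred in 6 of 8 promoters of the 9 genes (S100a9, Lcn2, Mpo, Csf3r, Fpr1 and Cybb), and in 41.3% of 33469 rat promoters. The PU.1 letters occurred in the same 6, and in 27.6% of all. Both together occurred in 6 of 8, and in 11.9% of all. The promoters of Camp and Ncf1 held neither. The STAT letters TTCNNNGAA, searched on both strands because the receptor signals through STAT3, were in 0 of 8 and in 8.87% of all. The AP-1 letters were in Cybb alone (7.33% of all). These are matches of letters and carry no measurement of binding.

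Of the oxidase subunit genes, Cybb had lower means in ventilated lungs and Ncf1 was too low to compare. The representative Cybb probe set (1379344_at) stood at log2 13.39 and 12.81 in controls, 13.17, 12.004 and 11.76 in prone lungs and 13.23, 12.50 and 11.27 in supine lungs. Arrays 2 and 3 of each ventilated group were below both controls, and the first arrays lay between them. The differences were -0.79 ± 0.65 for prone and -0.77 ± 0.65 for supine lungs (adjusted p = 0.565 and 0.573 by limma). Leaving out 1 array at a time they ran from -1.22 (without prone replicate 1) to -0.50 for prone and from -1.22 (without supine replicate 1) to -0.24 (without supine replicate 3) for supine lungs. The second Cybb probe set (1369181_at) read 7.63 and 8.28 in controls, 7.41, 6.38 and 5.80 in prone lungs and 6.79, 7.07 and 2.77 in supine lungs. It was lower than both controls on 6 of 6 ventilated arrays, by -1.42 ± 1.23 in prone and -2.41 ± 1.23 in supine lungs (adjusted p = 0.585 and 0.385). The supine value of this probe set leaned on the third supine array too, and without that array the difference was -1.03 ± 0.56 (adjusted p = 0.577). On that array the actin control probe sets differed by 9.10 between the 3′ and the 5′ end, against 3.16 to 4.64 on the other 7 arrays. Its part in the low values was not tested.

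Ncf1 (probe set 1387413_at) read 3.998 and 3.94 in controls, 4.17, 3.37 and 3.05 in prone lungs and 3.44, 3.05 and 3.43 in supine lungs. These values are under the filter of log2 5, and GCRMA levels this low cannot be separated from background without detection calls, which were not used here. The untested differences were -0.44 for prone and -0.66 for supine lungs, and the supine arrays were all below both controls.

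The Cybb promoter (GRCr8, chrX:16065016-16065315, minus strand) is printed because the Cybb means lay below control.
Cybb: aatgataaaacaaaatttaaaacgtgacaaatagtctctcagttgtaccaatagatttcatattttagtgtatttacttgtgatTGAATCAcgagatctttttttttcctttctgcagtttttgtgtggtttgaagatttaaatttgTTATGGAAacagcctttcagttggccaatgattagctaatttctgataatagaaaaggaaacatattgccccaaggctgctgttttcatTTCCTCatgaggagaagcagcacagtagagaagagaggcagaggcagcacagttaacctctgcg
It holds TGAATCA, which matches the AP-1 letters only through their free middle base, at -166 to -160. The window also holds the C/EBP letters at -103 to -96 and, on the other strand, the PU.1 letters at -14 to -9. The windows of S100a9 and Csf3r, whose means lay above control, also hold the C/EBP and PU.1 letters.

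**Figure D2:**
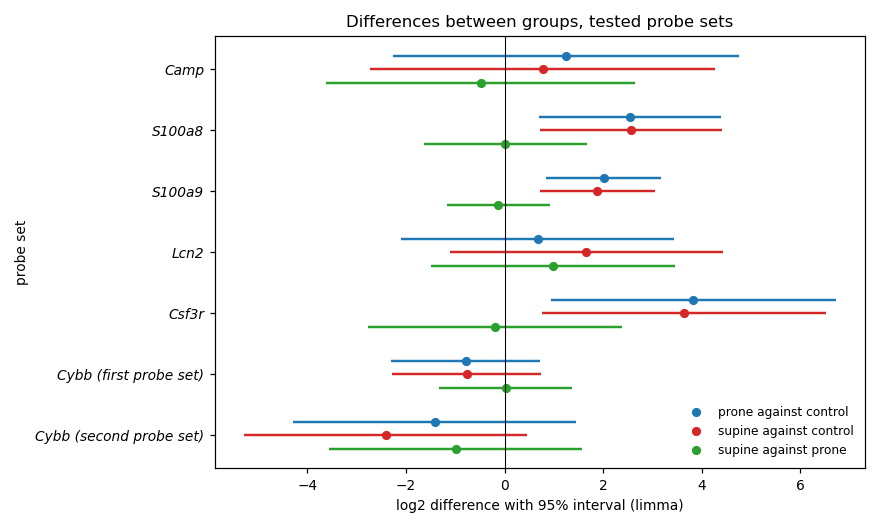
The horizontal axis gives the difference between group means on the log2 scale with its 95% interval from limma, for the 7 tested probe sets on the vertical axis. Colours stand for each ventilated group against control and for the supine against the prone group. The intervals of S100a8, S100a9 and Csf3r against control lie above 0, and every interval of supine against prone contains 0.

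Body position was compared directly in the same model. The supine mean of S100a8 differed from the prone mean by 0.02 ± 0.71, with a 95% interval of -1.64 to 1.68. For S100a9 the difference was -0.13 ± 0.45 (-1.17 to 0.91) and for Csf3r -0.20 ± 1.11 (-2.78 to 2.39). With 3 arrays a group, differences inside these intervals, in either direction, were not excluded. Lcn2 was 0.99 ± 1.06 higher in supine lungs (-1.49 to 3.46), Camp was -0.48 ± 1.35 (-3.62 to 2.66) and the first Cybb probe set 0.02 ± 0.58 (-1.34 to 1.38). The lowest adjusted limma p of the 7 tested probe sets was 0.945. The Lcn2 difference ran from 0.22 (without prone replicate 3) to 2.22 (without prone replicate 1) when 1 array at a time was left out. Without the first prone and first supine arrays it was 1.61 ± 0.45 (unadjusted p = 0.0148, adjusted p = 0.286), a comparison added after seeing the data.

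The same 2 arrays led the granule and receptor genes. The first prone and the first supine array were the 2 highest of the 8 arrays for 5 of the 7 genes (Camp, S100a8, S100a9, Lcn2 and Csf3r), where this held for 14.4% of all tested probe sets (2428 of 16896). For Camp the first prone array exceeded the mean of the other prone arrays by 3.63 and the first supine array its own group by 3.59. For Csf3r these gaps were 3.38 and 2.43, and for Lcn2 3.69 and 1.84. They were smaller for S100a9, at 1.04 and 1.04. The median over the 7 genes, relative to the control mean, was 3.14 and 2.89 on these arrays, -0.25 and 0.44 on the other prone arrays and 0.56 and 1.32 on the other supine arrays. Across all 16896 tested probe sets, the deviations of these 2 arrays from their group means correlated at 0.72. The other same-number pairs correlated at 0.11 to 0.33, so the likeness of these arrays was not confined to the 7 genes. The labels name no batch, so what these arrays share was not tested.

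With both of these arrays left out, an alternative added after seeing the data, S100a8, S100a9 and Csf3r were still higher than control. The prone differences were 1.94 ± 0.43, 1.67 ± 0.32 and 2.71 ± 0.61 (adjusted p = 0.0653, 0.0543 and 0.0670 by limma), and the supine differences 1.95, 1.53 and 2.83 (adjusted p = 0.137, 0.134 and 0.136). Those of Camp came to 0.04 for prone and -0.42 for supine lungs, and that of Lcn2 to -0.56 for prone and 1.05 for supine lungs. When arrays were instead weighted by their fit, S100a8, S100a9 and Csf3r passed for prone against control (adjusted p = 0.00659, 0.00453 and 0.0216). Cybb passed too, as lower (adjusted p = 0.0496). That weighting gave each control array a weight of 4.67 and the first prone array 0.283, and 5724 of the 16896 probe sets then passed.

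**Figure D3:**
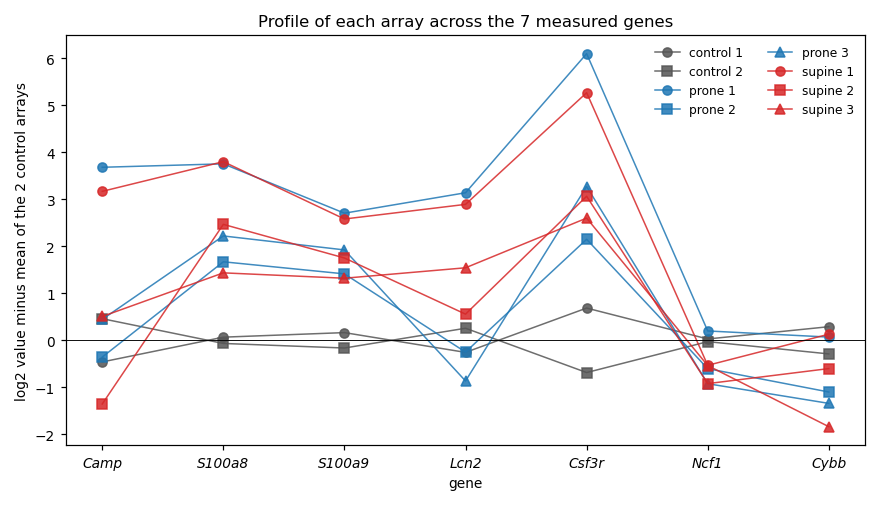
Each line is 1 array, the horizontal axis lists the 7 genes with a probe set, and the vertical axis gives the log2 value minus the mean of the 2 control arrays. The first prone and first supine arrays run above the others from Camp to Csf3r, with Csf3r at 6.09 and 5.26, and join them at Ncf1.

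Likeness of profile was measured as the root mean square difference over the 8 arrays after centring each gene on its own mean, among 10239 other tested genes. S100a8 was nearest to S100a9 (0.45), Lrg1 (0.55) and Nfe2 (0.58). Csf3r was nearest to Pglyrp1 (0.42), a granule peptidoglycan-recognition protein gene, then to Mmp9 (0.75), the granule gelatinase gene, and S100a8 (0.80). Lcn2 was nearest to Cd14 (0.25), the lipopolysaccharide co-receptor gene of macrophages and monocytes, then to Ptpn1 (0.37) and Srm (0.39). S100a9 was nearest to Fbxl5 (0.32), Rab24 (0.33) and Pgd (0.34), and Camp to Sfmbt2 (0.59), Mro (0.60) and Tnfrsf9 (0.61), which read under log2 5 outside the first prone and first supine arrays. The nearest genes to Cybb were Fam20c (0.17), Plscr3 (0.19) and Nagk (0.19). For Ncf1, whose values lie under the filter, none are given. This measure favours genes with a like spread, so a gene that varies little has small values.

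Within the 6 tested genes, S100a8 and S100a9 differed least (0.45), followed by S100a8 and Csf3r (0.80). Camp lay nearer to Lcn2 (0.92) than to S100a8 (1.27) or S100a9 (1.31). The largest distance was between Csf3r and Cybb (2.12).

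Other granule protein genes were measured for 14 of 22 listed, and all 14 were tested. None passed by adjusted p in any comparison. At an unadjusted limma p under 0.05, 4 were higher and 3 lower in prone lungs, and 3 were higher and 0 lower in supine lungs. Of all 16896 tested probe sets, 1296 were higher and 1693 lower in prone lungs, 17.7% in either direction. In supine lungs 1213 were higher and 1360 lower, 15.2% in either direction. The counts of the lists below are to be read beside these shares. Mmp9 read 3.62 and 3.81 in controls, 9.73, 7.68 and 7.94 in prone lungs and 9.51, 6.94 and 7.49 in supine lungs. Every ventilated array was above both controls (adjusted p = 0.0929 for prone and 0.179 for supine lungs by limma). A group mean under log2 5 cannot be separated from background, so for Mmp9 and the other genes with such a mean below, levels are given and no size of difference. RatNP-3b, a defensin gene of rat neutrophils, went the other way. It read 6.79 and 8.31 in controls, 3.03, 3.02 and 3.02 in prone lungs and 2.72, 5.09 and 7.28 in supine lungs, with an adjusted p of 0.132 for prone lungs by limma. Defensin transcripts are made by maturing neutrophils in the marrow and are scarce in mature cells. Whether this bears on the RatNP-3b values was not tested. The median difference over the 14 genes was 0.55 for prone and 0.28 for supine lungs.

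Other surface receptor genes were measured for 13 of 24 listed, and 12 were tested. 1 was higher and 1 lower at an unadjusted p under 0.05 in prone lungs, and 1 higher and 0 lower in supine lungs. Il1r2, the decoy receptor for interleukin 1 on neutrophils, read 5.78 and 5.32 in controls, 13.30, 9.65 and 10.60 in prone lungs and 12.40, 10.36 and 10.98 in supine lungs. Its difference was 5.63 ± 1.05 and 5.69 ± 1.05 (adjusted p = 0.0955 and 0.151 by limma). Cxcr2, the receptor through which neutrophils follow CXC chemokines, read 2.32 and 2.23 in controls, 7.68, 2.61 and 2.92 in prone lungs and 5.98, 5.29 and 2.86 in supine lungs. All its ventilated arrays were above both controls, yet some by little (adjusted p = 0.521 for prone and 0.470 for supine lungs by limma). The median difference over the 13 genes was 0.67 and 0.83.

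**Figure D4:**
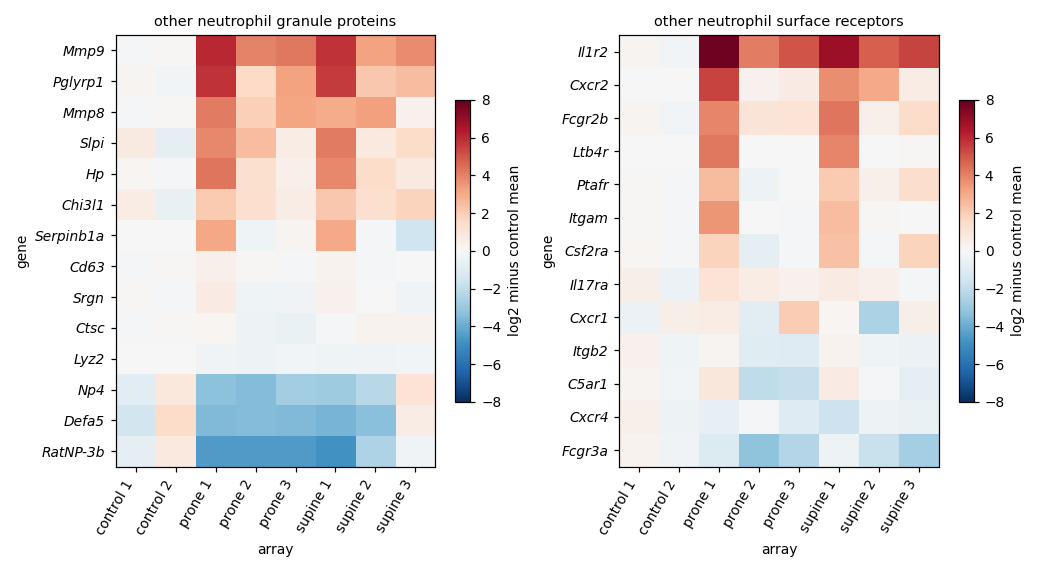
The panels show the other granule protein genes and the other surface receptor genes with a probe set as rows and the 8 arrays as columns, with colour giving the log2 value minus the control mean. Mmp9 and Il1r2 are high on all 6 ventilated arrays, and RatNP-3b is low on the prone arrays and the first supine array.

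The partners of the oxidase subunits did not pass either. Of 10 listed oxidase components 7 had a probe set and 5 were tested, and 0 were higher or lower at an unadjusted p under 0.05 in any comparison against control. Cyba, which encodes the subunit that stabilises the Cybb protein in the membrane, read 10.32 and 10.21 in controls, 10.79, 9.40 and 9.36 in prone lungs and 10.38, 9.06 and 5.46 in supine lungs. The third supine array, which had the high actin ratio, again held the low value. Ncf4, a cytosolic subunit gene, read 8.60 and 7.92 in controls, 10.28, 8.69 and 8.81 in prone lungs and 11.02, 8.52 and 9.35 in supine lungs, with a prone difference of 1.00 ± 0.79 (adjusted p = 0.549 by limma). The Cyba means, like those of Cybb, lay below control, by -0.42 ± 1.28 in prone and -1.97 ± 1.28 in supine lungs (-0.55 ± 0.64 without the third supine array), while those of Ncf4 lay above it.

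Of 15 listed ligands and inducers of the 9 genes, 10 were tested and 0 passed. At an unadjusted p under 0.05, 2 were higher in prone and 1 in supine lungs, and 0 were lower. Csf3, which encodes the ligand of the Csf3r protein, read 2.48 and 2.42 in controls, 8.73, 2.64 and 2.49 in prone lungs and 6.94, 2.35 and 4.27 in supine lungs. It was far above the controls on the first array of each ventilated group and moderately so on the third supine array, whereas Csf3r was higher on all 6. The adjusted p was 0.612 for prone and 0.623 for supine lungs by limma. Il6, an inflammatory cytokine gene, read 3.65 and 2.32 in controls, 13.35, 12.82 and 6.46 in prone lungs and 12.23, 4.05 and 12.42 in supine lungs. Beside both first arrays it was thus high on the second prone array and the third supine array, on which Camp was not. Cxcl2, which encodes a ligand of the Cxcr2 receptor, read 4.78 and 3.39 in controls, 12.37, 6.96 and 4.76 in prone lungs and 10.09, 4.42 and 10.34 in supine lungs, and the groups overlapped. Anxa1, whose product gives rise to ligands of formyl peptide receptors, varied only between 13.18 and 13.93.

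Receptors and partners of the S100A8, S100A9 and lipocalin 2 proteins numbered 8, all tested. In prone lungs 1 was higher and 0 lower at an unadjusted p under 0.05, and in supine lungs 0 were higher and 2 lower. Bsg, which encodes basigin, a membrane protein reported to bind S100A9, was at -1.43 ± 0.60 in supine lungs (adjusted p = 0.320 by limma), and Cd36, a fatty acid and scavenger receptor gene, at -2.18 ± 0.97 (adjusted p = 0.341). Without the third supine array, which held the lowest value of both, they were at -0.79 ± 0.32 and -1.38 ± 0.84 (adjusted p = 0.489 and 0.610), a setting added after seeing the data. Of 12 granulocyte transcription factor genes 9 were tested, with 3 higher in prone, 1 in supine and 0 lower in either. Stat3, which acts below the G-CSF receptor, was higher than both controls on all 6 ventilated arrays, by 1.47 ± 0.42 and 1.58 ± 0.42 (adjusted p = 0.158 and 0.220). Its second probe set did not share this, at 10.21 on the first supine array against 10.73 and 11.06 in controls. Nfkbiz, an NF-kappaB cofactor gene needed for Lcn2 induction in mice, was at 2.21 ± 0.72 in prone and 1.32 ± 0.72 in supine lungs (adjusted p = 0.189 and 0.409), and at 0.74 ± 0.63 in supine lungs without the third supine array. The other S100 genes, 10 tested of 13 listed, had 0 higher and 4 lower in prone lungs and 0 higher and 3 lower in supine lungs at an unadjusted p under 0.05. S100a16 was at -1.18 ± 0.46 and -1.33 ± 0.46, and S100a1 at -1.03 ± 0.39 and -1.45 ± 0.39, in prone and supine lungs. Their direction was opposite to that of S100a8 and S100a9.

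Markers of other cells moved with some of these genes, and their part in the differences was not tested. For general leukocyte markers (7 of 7 tested) 0 were higher and 0 lower at an unadjusted p under 0.05 against control, with list means of 10.86 to 11.29 in controls, 10.74 to 11.31 in prone and 10.49 to 11.33 in supine lungs. Of these Coro1a differed by -0.65 ± 1.09 in prone lungs, and Cd52 had means under log2 5 in every group. Macrophage and monocyte markers (11 tested of 17 listed) had 0 higher and 1 lower in prone and 1 higher and 0 lower in supine lungs, and means of 9.07 to 9.23, 8.55 to 10.07 and 9.15 to 10.23. The first prone and first supine arrays held the top of both ranges of list means, as they did for Lcn2 and Camp. Not every marker shared this: Mrc1 read 10.79 and 10.27 on these arrays, against 10.98 and 11.47 in controls. The mean was higher than control for 5 of the 11 genes in prone and 6 of 11 in supine lungs. Their median difference was -0.06 and 0.03. Cd14 read 9.32 and 9.47 in controls, 12.85, 9.17 and 8.74 in prone lungs and 13.03, 10.15 and 10.96 in supine lungs, array by array close to the course of Lcn2. Itgax, an integrin gene of macrophages and dendritic cells, was 2.57 ± 0.81 higher in supine lungs (adjusted p = 0.256 by limma).

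Lymphocyte markers (12 tested of 15) had 0 higher and 8 lower in prone and 0 higher and 4 lower in supine lungs, with means of 8.13 to 9.40 in controls, 4.98 to 7.17 in prone and 7.02 to 8.10 in supine lungs. Cd79b, a B cell receptor gene, read 7.90 and 6.52 in controls and 2.22 to 5.91 on the ventilated arrays. Nkg7, of cytotoxic cells, read 9.10 and 7.66 in controls, 2.40 to 7.59 in prone and 4.89 to 8.50 in supine lungs. For eosinophil, basophil and mast cell markers (4 tested of 14) 0 were higher and 1 and 2 lower in prone and supine lungs. Fcer1a read 7.81 and 7.04 in controls, 3.67 to 6.19 in prone and 4.44 to 6.04 in supine lungs, and Cpa3 was at -1.72 ± 0.87 and -2.21 ± 0.87. Erythroid and platelet markers (6 tested of 12) had 2 higher in prone and 1 in supine lungs and 0 lower, with list means of 6.91 to 6.99, 7.04 to 9.10 and 6.58 to 7.93. Alas2, the erythroid heme synthesis gene, was 3.41 ± 0.60 and 2.26 ± 0.60 higher (adjusted p = 0.0899 and 0.220 by limma), and Rhd read at most 5.86 on any array. The third prone array had the highest erythroid mean, and Camp read 7.52 and Lcn2 10.78 on it. The relation of the erythroid markers to these genes was not tested.

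The alveolar epithelial markers marked the tissue as lung, with list means of 13.78 to 13.82 in controls, 12.99 to 13.62 in prone and 13.28 to 13.63 in supine lungs (12 tested of 13, 0 higher, 1 and 2 lower). Aqp5, the type 1 cell water channel gene, was at -1.34 ± 0.52 and -1.70 ± 0.52, and Napsa at -0.83 ± 0.53 and -0.71 ± 0.53. Endothelial markers (7 tested of 8) had 0 higher and 0 lower, with Tek at -0.85 ± 0.63 and -0.82 ± 0.63 and Cldn5 at -0.65 ± 0.47 and -0.93 ± 0.47 (-0.51 ± 0.35 in supine lungs without the third supine array). Airway epithelial markers (6 tested of 10) had 1 higher in prone lungs and 0 in supine lungs, with means of 8.57 to 8.59, 7.91 to 13.20 and 8.45 to 10.66. Muc5b, an airway mucin gene, read 11.44 on the second prone array and 9.08 on the second supine array, against 4.51 to 7.21 elsewhere, and Bpifa1 read 13.71 on the second prone array. Lcn2 read 11.39 on the second prone array, within the control values. The relation of the airway markers to Lcn2 was not tested.

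**Figure D5:**
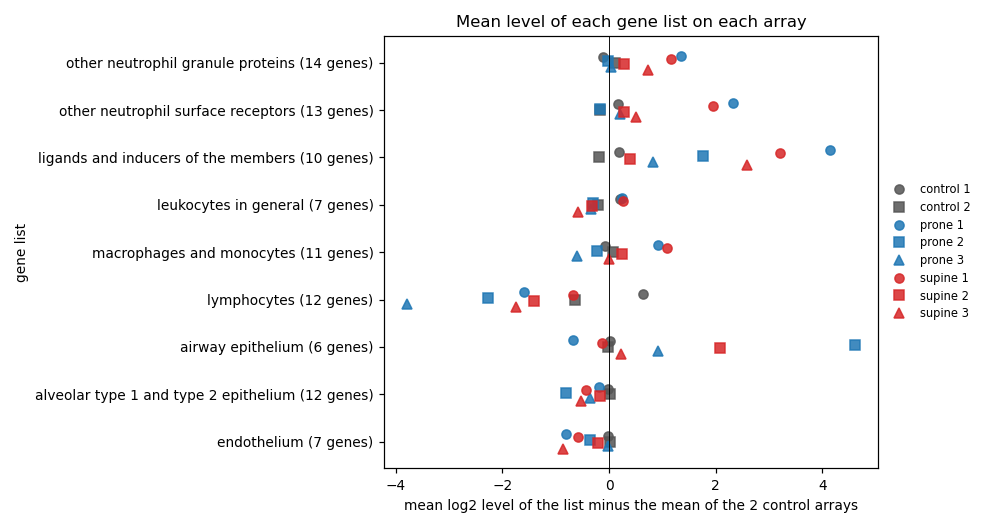
The horizontal axis gives the mean log2 level of each gene list on each array minus the mean of the 2 control arrays, and the vertical axis names the lists with the number of genes that have a probe set. The first prone and first supine arrays lead the neutrophil, ligand and macrophage lists, lymphocyte markers lie lower on every ventilated array than on the control mean, and airway markers are highest on the second prone array.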

How the data were processed

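Lung RNA of 8 rats, 300 ng per sample, was hybridised to 1-colour Affymetrix arrays. The log2 values deposited by the authors are GCRMA summaries, which correct background, bring arrays to common quantiles and combine the probes of a probe set, and Partek 6.5 was used, per the submitters' processing notes. Groups were taken from the labels, which give both ventilated groups a high tidal volume. The supine titles read SVt, and the sources used here do not explain it. Titles call the samples biological replicates, and p-values measure the spread between these samples. Gene symbols came from the platform annotation.

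Of 20214 probe sets that are not array controls, 16896 reached log2 5 on 2 or more arrays and were fitted with limma 3.58.1 in R 4.3.3, with 1 mean per group over all 8 arrays. Tests were two-sided and adjusted by Benjamini-Hochberg over all tested probe sets within each comparison. Errors after ± are limma standard errors. The probe set with the highest mean stood for a gene, so the Cybb results that name no probe set are those of 1379344_at. Outside the 9 genes, the text names the tested genes of each list with the largest ventilated difference, 2 per list, direct partners (Csf3, Cyba, Ncf4 and Anxa1), and the 3 genes nearest in profile to each of the 9 that was tested. Mrc1 and Fcgr3a were named after seeing their values, as genes that did not follow others of their lists. The 9 genes, the lists and the tests were chosen with earlier results of these data known. The first 2 comparisons share their controls.

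Medians over all probe sets ran from 7.77 to 7.95. On the third supine array the actin and GAPDH 3′ minus 5′ differences were 9.10 and 8.41, against at most 4.64 and 1.92 elsewhere. The labels do not say what a replicate number shares. Deviations from group means correlated above 0.1 for each of the 7 same-number pairs (0.11 to 0.72, across probe sets), so a fit with the number as a block was used as an alternative. The other alternatives were the filter, quantile normalization again, centring, array weights, an intensity trend, robust eBayes, averaging probe sets, fitting only the compared groups and leaving out each array. The fit was tested on simulated data with noise drawn separately for each array, so it was not tested on arrays that deviate together. Promoters are those of the RefSeq table for GRCr8, which has one for 8 of the 9 genes.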

Additional observations from a re-analysis of the deposited data

How the results depend on the processing

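S100a8, S100a9 and Csf3r stayed higher than control under every alternative run, and 0 of the tested genes passed in any of them except with array weights. With array weights 4 genes passed for prone against control and 3 for ventilated against control, while the tested probe sets that passed went from 9 to 5724 and from 24 to 4704. Over the other alternatives that number ran from 0 up to 728 for prone and 413 for ventilated against control, both with the first prone and first supine arrays left out, and up to 153 for supine against control without supine replicate 2, and up to 3 for supine against prone without prone replicate 1. With the replicate number as a block 0 probe sets passed in each comparison. Without it 9 had passed for prone, 9 for supine and 24 for ventilated against control, and 0 for supine against prone. The block changed no call of the members, with 3 genes at an unadjusted limma p under 0.05 against control as before. With the block the members' median difference was 1.52 for prone, 2.05 for supine and 1.58 for ventilated against control. Csf3r was then at 4.24, 4.04 and 4.14 (adjusted p = 0.0930, 0.172 and 0.0897 by limma). Leaving out 1 array at a time, the count at an unadjusted p under 0.05 was 1 to 3 for prone and 1 to 4 for supine against control, with 1 when control replicate 2 was left out, and 0 to 1 for supine against prone. The members' median difference then ran from 0.04 to 2.06 for prone, 1.05 to 1.95 for supine and 0.55 to 1.55 for ventilated against control, and from -0.48 to 0.62 for supine against prone. Without supine replicate 3 the count of genes at an unadjusted limma p under 0.05 was 3 for prone and 3 for supine against control. It was 0 for supine against prone and 3 for ventilated against control. With both first arrays left out this count was 1 for supine against prone, the gene being Lcn2. The prone Lcn2 difference ranged from -0.56 to 1.44 with 1 array left out, was -0.14 with array weights and -0.56 without both first arrays, and the supine Camp difference ranged from -0.42 to 1.84 and was -0.42 without both. The ventilated Camp difference was -0.19 without both. Supine against prone, single arrays left out gave -1.68 to 0.73 for Camp, -0.60 to 0.62 for S100a8, -0.48 to 0.22 for S100a9, -1.04 to 0.93 for Csf3r, 0.22 to 2.22 for Lcn2, -0.46 to 0.10 for Ncf1 and -0.43 to 0.55 for Cybb. In that comparison the sign also turned for S100a8 (-0.052) and Cybb (-0.049) when arrays were centred, for S100a9 (7.08e-05) with quantile normalization again, for Camp (0.39), S100a9 (0.18) and Csf3r (0.72) with array weights, for Cybb (-0.49) with probe sets averaged, and for Csf3r (0.12) and Ncf1 (0.034) without both first arrays. The cause of these changes was not tested. Levels such as those of Ncf1 are too low for a comparison here.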
